A study of Mus musculus with 4 samples.

Results

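The 10 genes described here encode the switch that turns down protein synthesis under stress: the 4 kinases of eIF2 alpha, the regulatory subunits that bring phosphatase 1 to eIF2 alpha, the alpha and beta subunits of eIF2, the catalytic subunit of its exchange factor eIF2B, and the cap-binding repressor 4E-BP1. They were taken by gene name from the deposited table, where all 10 were present among 15255 genes. Poly(A) RNA had been sequenced from freshly isolated bone marrow LSK cells, the mouse fraction that lacks lineage markers, expresses c-Kit and Sca-1, and in which haematopoietic stem cells and early progenitors lie. There were 2 libraries of Afg3l2 KO cells and 2 of Afg3l2 WT cells, numbered 1 and 2 in each group. The labels name no strain, age, sex or pooling of the mice, no Cre driver or deleted exon, and no separate animals behind the libraries, so a p-value here measures only the spread between libraries. Afg3l2 encodes part of the m-AAA protease, which degrades and processes proteins in the inner membrane of mitochondria, and the comparison asks which RNAs change when it is lost.

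eIF2, bound to GTP, carries the initiator tRNA to the ribosome and is recharged by eIF2B after each round. When its alpha subunit is phosphorylated, eIF2 blocks eIF2B, most translation slows, and a few mRNAs with upstream reading frames, such as that of the transcription factor ATF4, are translated more. Haematopoietic stem cells are known for a low rate of protein synthesis. Stress of mitochondria can reach the pathway through the protease OMA1, its substrate DELE1 and the kinase HRI. All of these steps act on proteins, whereas the values below are RNA levels.

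The serine that all 4 kinases phosphorylate is encoded in the mRNA of Eif2s1. Its codon is shown because the kinases and the phosphatase subunits act on this serine. It is residue 51 of the protein once the first methionine is left out, and codon 52 of the annotated coding sequence. The 33 bases around it on chromosome 12, read 5′ to 3′ from the GENCODE M21 transcript with the serine codon in capitals, are as follows.
Eif2s1 codons: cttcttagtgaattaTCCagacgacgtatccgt

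The 4 libraries held 16522338 to 17271936 reads assigned to genes, so that 1 read was worth 0.0566 to 0.0603 CPM. CPM values are read counts scaled to a common library size. The targeted gene stood at 36.7 and 30.1 CPM in the KO libraries, against 79.6 and 86.0 CPM in the WT libraries, a log2 fold change of -1.29 ± 0.16 (SE, limma adjusted p = 0.0115). Its limma adjusted p was 0.0551 without KO replicate 1 and 0.161 without KO replicate 2. Across all genes, 369 of 15255 passed at an adjusted p under 0.05, which is 2.42%, with 241 higher and 128 lower in the KO. The count was 64 without KO replicate 1, 0 without KO replicate 2, 656 without WT replicate 1 and 1068 without WT replicate 2. Kit, which encodes c-Kit, stood at 254 and 223 CPM in the KO libraries and 341 and 243 CPM in the WT libraries, and Ly6a, which encodes Sca-1, at 95.4 and 76.9 CPM against 57.1 and 61.6 CPM. Summed over 10 stem and progenitor markers the level was 673 to 1040 CPM in the KO and 1010 to 1770 CPM in the WT. RNA of genes listed as markers of other cell types was also present. The 6 plasma cell genes summed to 7560 to 9430 CPM in the KO and 9830 to 14500 CPM in the WT. Among them Ighm was the highest in every library (5287 and 5931 CPM in the KO, 5510 and 6937.5 CPM in the WT). Tnfrsf17 (3.03 and 4.04 CPM in the KO, 3.34 and 5.81 CPM in the WT) and Mzb1 (1.90 and 3.50 CPM in the KO, 3.90 and 8.78 CPM in the WT) were low. The 5 neutrophil genes summed to 465 to 689 CPM in the KO, against 75.9 CPM in WT replicate 1 and 1680 CPM in WT replicate 2. The sums of 6 B cell genes were 67.1 and 286 CPM in the KO and 184 and 497 CPM in the WT, of 6 T and NK cell genes 159 and 118 CPM against 147 and 241 CPM, of 8 macrophage and monocyte genes 449 and 325 CPM against 299 and 833 CPM, of 7 mature erythroid genes 210 and 268 CPM against 191 and 208 CPM, of 5 dendritic cell genes 250 and 270 CPM against 260 and 344 CPM, and of 4 endothelial genes 72.0 and 60.0 CPM against 128 and 121 CPM. The T and NK cell sum was largely Nkg7 (134 and 68.9 CPM in the KO, 132 and 205 CPM in the WT). The endothelial sum was largely Pecam1 (65.5 and 55.8 CPM in the KO, 117 and 110 CPM in the WT). Sums carried by single genes do not measure the amount of a cell type. Among the dendritic cell genes Xcr1 rose by limma (63.0 and 77.3 CPM in the KO, 5.60 and 11.1 CPM in the WT). Genes that fell included Siglech (2.32 and 5.73 CPM in the KO, 24.3 and 50.5 CPM in the WT) and Ly6d (13.5 and 18.7 CPM in the KO, 52.5 and 68.4 CPM in the WT) of the dendritic cell list, Csf1r, Jchain and Pecam1. In the macrophage and monocyte list, which holds Csf1r, Itgam, Ly6c2 and Cd68 had log2 fold changes of -1.52, -0.66 and -0.09. C1qa, C1qb, C1qc and Adgre1 of that list went the other way, at 2.29, 2.31, 2.29 and 1.30. None of these genes but Csf1r was called. Apart from Kit and Ly6a, the marker genes named here were chosen after their values were seen. Ly6g and Cd209d were not among the genes of the table, and no other listed marker was at 0 in any library. The part of other cell types in the results below was not tested. Both libraries numbered 2 held far more Xist RNA (1004 CPM in KO and 889 CPM in WT) than those numbered 1 (15.7 CPM in KO and 0.113 CPM in WT), so the values of same-numbered libraries are given as well.

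RNA of Eif4ebp1 and Eif2s2 rose in the KO, and the other 8 genes did not pass the test. By limma 2 of the 10 genes were called, both higher, where 2.42% of all genes were called, 1.58% higher and 0.839% lower. Of the 10 genes 6 had an unadjusted p under 0.05, as had 20.8% of all genes. EdgeR called the same 2 genes and 1.88% of all genes, 1.27% higher and 0.61% lower. With a replicate block, which pairs same-numbered libraries, limma called 4 of the 10 higher and 1 lower, where 11.7% of all genes were called, 6.64% higher and 5.02% lower. The authors' deposited table, at an FDR under 0.05, calls 4 of the 10 and 11.5% of all genes. Of those not called, Eif2s1 and Ppp1r15a came closest, the first with both KO libraries above both WT libraries and the second with both below. RNA of the kinases Eif2ak1, Eif2ak3 and Eif2ak4 overlapped between the groups. The KO and WT libraries did not overlap for 7 of the 10 genes, 6 above and 1 below, and for 54.1% of all genes (27.2% above, 26.9% below). The median log2 fold change was 0.34 over the 10 genes and -0.02 over all genes. In bulk RNA, fewer cells of a type and less RNA per cell cannot be told apart.

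**Figure D1:**
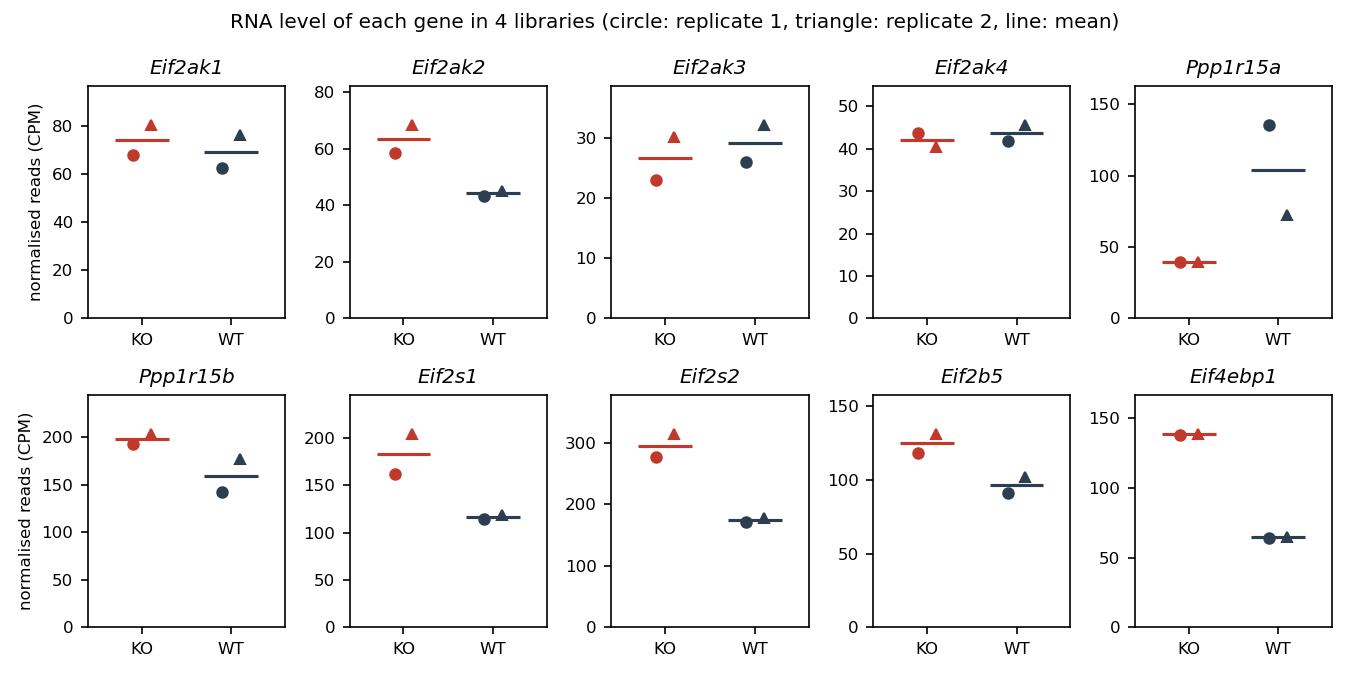
RNA level in CPM (y axis, from 0) of each of the 10 genes in the KO (left) and WT (right) libraries; circles are replicate 1, triangles replicate 2 and lines the group mean. Eif4ebp1 had 138 and 139 CPM in the KO and 64.2 and 65.0 CPM in the WT, whereas Ppp1r15a was the gene whose KO libraries both lay below the WT libraries.

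Eif4ebp1 encodes 4E-BP1, which binds the cap-binding protein eIF4E and keeps it from the ribosome until mTORC1 phosphorylates it. It had 138 and 139 CPM in KO replicates 1 and 2, against 64.2 and 65.0 CPM in WT replicates 1 and 2. The groups did not overlap. The values of each group lay within 1 CPM of each other, and 2 libraries are too few to measure their spread well. The means were 138 ± 0.405 CPM in the KO and 64.6 ± 0.521 CPM in the WT (SD, n = 2 each), or 2.14 times as much in the KO. On the log2 scale the difference was 1.09 ± 0.13 (SE, 95% interval 0.78 to 1.39, limma adjusted p = 0.0110). Same-numbered libraries gave log2 differences of 1.09 and 1.08. The adjusted p was 0.0708 without KO replicate 1 and 0.161 without KO replicate 2, with log2 fold changes of 1.09 and 1.08. Over fits with all 4 libraries the adjusted p ran from 1.51e-09 to 0.113, the last being limma without trend and robust moderation. The gene lies on chromosome 8 of GRCm38 from 27260329 to 27276674 on the plus strand, and no annotated gene shares its exon sequence.

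The 4 library values of log2(CPM + 1), centred on their own mean, were compared between Eif4ebp1 and 13794 other genes averaging at least 1 CPM. The nearest were Sars, which encodes seryl-tRNA synthetase, Pck2, the mitochondrial phosphoenolpyruvate carboxykinase, and Fer, a tyrosine kinase, at Euclidean distances of 0.0426, 0.0514 and 0.0841 over the 4 libraries. Sars stood at 326 and 336 CPM in the KO and 150 and 154 CPM in the WT, and Pck2 at 376 and 387 CPM in the KO and 177 and 173 CPM in the WT. Fer was far less abundant, at 10.8 and 10.3 CPM in the KO and 4.70 and 4.63 CPM in the WT.

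Neither the related repressor nor the target of 4E-BP1 passed the test. Eif4ebp2, which encodes a second repressor of the same family, stood at 291 and 344 CPM in the KO and 226 and 272 CPM in the WT (log2 fold change 0.35, limma adjusted p = 0.259). Eif4e, the cap-binding target of both repressors, stood at 174 and 181 CPM in the KO and 151 and 144 CPM in the WT (log2 fold change 0.27, limma adjusted p = 0.289). These 2 genes were chosen after their values were seen. The ratio of Eif4ebp1 to Eif4e RNA, in CPM over CPM, was 0.794 and 0.767 in the KO libraries and 0.425 and 0.452 in the WT libraries. Per kilobase of exon, a scale on which genes can be set side by side, Eif4ebp1 was at 62.9 and 63.1 CPM per kb and Eif4ebp2 at 50.3 and 59.4 CPM per kb in the KO, whereas in the WT Eif4ebp1 was at 29.2 and 29.6 and Eif4ebp2 at 39.0 and 47.1 CPM per kb. Eif4ebp1 was thus above Eif4ebp2 in both KO libraries and below it in both WT libraries. With groups of 2 an exact two-sided permutation test of such a ratio cannot go below p = 0.333, so single ratios and shares are given with no test.

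Eif2s2 encodes the beta subunit of eIF2. It had 276 and 315 CPM in the KO libraries, against 171 and 177 CPM in the WT libraries. Both KO libraries lay above both WT libraries, and the KO libraries were the more spread. The means were 295 ± 27.1 CPM in the KO and 174 ± 4.15 CPM in the WT (SD, n = 2 each), or 1.69 times as much in the KO. This is a log2 fold change of 0.75 ± 0.14 (SE, 95% interval 0.44 to 1.07, limma adjusted p = 0.0362). The adjusted p was 0.118 without KO replicate 1 and 0.366 without KO replicate 2, with log2 fold changes of 0.85 and 0.66. Over fits with all 4 libraries the adjusted p ran from 8.7e-05 to 0.167, the last again being limma without trend and robust moderation. The gene lies on chromosome 2 of GRCm38 from 154871410 to 154892935 on the minus strand. A processed pseudogene, Gm9892, matches 992 bases of its transcript at 99.5% identity, so reads could be split between them. Gm9892 itself stood at only 5.11 and 7.66 CPM in the KO and 3.62 and 2.31 CPM in the WT.

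Eif2s1 encodes the alpha subunit, the substrate of the kinases. It had 162 and 204 CPM in the KO libraries, against 114 and 119 CPM in the WT libraries. Both KO libraries again lay above both WT libraries. The means were 183 ± 30.0 CPM in the KO and 116 ± 3.28 CPM in the WT (SD, n = 2 each), a ratio of 1.57. Its log2 fold change of 0.64 ± 0.15 (SE, 95% interval 0.28 to 0.999) did not pass by limma (adjusted p = 0.0821). It passed with a replicate block (limma adjusted p = 0.0153, edgeR adjusted p = 0.0121) and by DESeq2 (adjusted p = 0.0105). With 1 library left out it did not pass, at limma adjusted p-values of 0.0668 to 0.567. Across all fits with 4 libraries the adjusted p lay between 0.0105 and 0.221. In the authors' deposited table it had an FDR of 0.00797. The gene lies on chromosome 12 of GRCm38 from 78861819 to 78887010 on the plus strand. The processed pseudogene Gm7459 matches 947 bases of its transcript at 96.6% identity and stood at 0.653 and 0.603 CPM in the KO and 0.453 and 0.475 CPM in the WT.

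Since the RNAs of both subunits were higher in every KO library, their promoter windows are shown together. Each runs from 250 bases before to 50 bases after the RefSeq start on GRCm38.p6. The windows are chr12:78861822-78862121 on the plus strand for Eif2s1 and chr2:154892857-154893156 on the minus strand for Eif2s2. Capitals mark matches to 1 of 4 motifs searched on both strands.
Eif2s1: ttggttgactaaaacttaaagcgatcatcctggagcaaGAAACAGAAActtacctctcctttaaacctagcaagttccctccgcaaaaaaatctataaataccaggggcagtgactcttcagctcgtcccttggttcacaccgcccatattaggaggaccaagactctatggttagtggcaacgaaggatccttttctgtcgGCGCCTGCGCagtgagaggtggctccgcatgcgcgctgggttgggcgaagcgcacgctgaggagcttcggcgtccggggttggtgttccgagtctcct
Eif2s2: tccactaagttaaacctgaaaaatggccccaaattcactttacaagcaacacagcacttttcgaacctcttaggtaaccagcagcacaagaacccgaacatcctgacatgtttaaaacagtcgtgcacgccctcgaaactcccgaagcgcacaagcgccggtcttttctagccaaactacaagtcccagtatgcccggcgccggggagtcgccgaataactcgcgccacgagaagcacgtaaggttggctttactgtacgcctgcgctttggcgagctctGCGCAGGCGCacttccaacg

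Both windows hold the core of a site for NRF1, an activator of many housekeeping genes, spelled GCGCA, any base, GCGC. It begins 48 bases before the start in Eif2s1, on the opposite strand, and 30 bases after the start in Eif2s2. Of all 32851 promoter windows, 4.60% hold it. The earlier capitals in Eif2s1 are a match to the interferon-stimulated response element core, spelled GAAA, any 2 bases, GAAA, which 3.44% of windows hold. The core of the C/EBP-ATF response element, TTGCATCA, to which ATF4 binds with a C/EBP partner, is in 0.895% of all windows and in no window of the 8 genes that had an entry. The 4 motifs were chosen after the sequences had been read, and a match describes letters only.

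The gamma subunit of eIF2 is encoded on both sex chromosomes, by Eif2s3x and Eif2s3y. Eif2s3x stood at 116 and 207 CPM in the KO libraries and 77.4 and 136 CPM in the WT libraries, with a log2 fold change of 0.59 and a limma adjusted p = 0.484. Eif2s3y stood at 80.5 and 3.68 CPM in the KO and 103 and 5.28 CPM in the WT. Within each group the library numbered 1 was the one rich in the Y-linked copy, and the library numbered 2 was the one rich in the X-linked copy. With a replicate block, Eif2s3x passed (adjusted p = 0.0153). The sum of both copies was 197 and 211 CPM in the KO and 181 and 141 CPM in the WT. These 2 genes were chosen after their values were seen.

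Eif2b5 encodes the catalytic epsilon subunit of eIF2B, which exchanges GDP for GTP on eIF2. It had 118 and 131 CPM in the KO libraries, against 91.1 and 102 CPM in the WT libraries. The groups did not overlap, and the difference was small. Its log2 fold change was 0.37 ± 0.14 (SE, 95% interval 0.03 to 0.70) and did not pass (limma adjusted p = 0.204). The authors' deposited table gives it an FDR of 0.179. It lies on chromosome 16 of GRCm38 from 20498817 to 20509323 on the plus strand.

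Of 13 further genes listed for eIF2, eIF2B and their partners, 0 passed by limma and 0 by edgeR. By limma 5 were higher and 1 lower at an unadjusted p under 0.05, and 3 passed with a replicate block, all higher. Of all genes 20.8% had an unadjusted p under 0.05, and 6.64% were called higher by limma with the block. Eif5, which encodes the GTPase-activating partner of eIF2, stood at 414 and 464 CPM in the KO and 269 and 320 CPM in the WT (log2 fold change 0.58, limma adjusted p = 0.0966). Eif2b3, the gamma subunit of eIF2B, had a log2 fold change of 0.66, Eif2d, which delivers tRNA without eIF2, one of 0.37, and Eif2b2, the beta subunit of eIF2B, one of 0.45, with limma adjusted p-values of 0.162, 0.186 and 0.203. Summed over the 9 genes of eIF2 and eIF2B subunits, the level per length was 257 and 298 CPM per kb in the KO libraries and 198 and 203 CPM per kb in the WT libraries.

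Ppp1r15a, which encodes GADD34, the stress-inducible subunit that directs phosphatase 1 to eIF2 alpha, had 39.4 and 39.8 CPM in the KO libraries, against 136 and 72.7 CPM in the WT libraries. The KO libraries were nearly equal and both below the WT libraries, which differed widely from each other. The means were 39.6 ± 0.273 CPM in the KO and 104 ± 44.5 CPM in the WT (SD, n = 2 each), a ratio of 0.380. Its log2 fold change of -1.31 ± 0.29 (SE, 95% interval -2.01 to -0.60) did not pass (limma adjusted p = 0.0850). With a replicate block it passed by limma (adjusted p = 0.0479) and not by edgeR (adjusted p = 0.0628), and it passed by DESeq2 without the block (adjusted p = 0.000162). Across all fits with 4 libraries the adjusted p lay between 0.000162 and 0.185. In the authors' deposited table its FDR was 0.000202. Same-numbered libraries gave log2 differences of -1.76 and -0.85. The log2 fold change was -0.86 without WT replicate 1 and -1.75 without WT replicate 2. It was -1.30 without KO replicate 1 and -1.31 without KO replicate 2. A fit without a WT library takes its spread from the nearly equal KO libraries and drops the wide WT spread. These 4 fits are therefore given as log2 fold changes only. Ppp1r15a lies on chromosome 7 of GRCm38 from 45522916 to 45526268 on the minus strand.

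Ppp1r15b encodes CReP, the constitutive counterpart of GADD34. It had 193 and 204 CPM in the KO libraries, against 142 and 177 CPM in the WT libraries. The groups did not overlap but lay close together. With a log2 fold change of 0.32 ± 0.15 (SE, 95% interval -0.03 to 0.67) it did not pass (limma adjusted p = 0.280). It lies on chromosome 1 from 133131143 to 133139783 on the plus strand, and 11.4% of its exon sequence is shared with Gm26616 on the opposite strand, which reads of unstated strand cannot tell apart.

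The ratio of Ppp1r15a to Ppp1r15b RNA, in CPM over CPM, was 0.204 and 0.195 in the KO libraries, against 0.955 and 0.410 in the WT libraries. Per kilobase of exon, Ppp1r15a made up 28% and 27.1% of the summed level of both genes in the KO and 64.5% and 43.9% in the WT. The sum itself was 47.9 and 49.9 CPM per kb in the KO and 71.6 and 56.4 CPM per kb in the WT. In WT replicate 1 Ppp1r15a was thus the more abundant of the pair, and in the other 3 libraries Ppp1r15b was. Of 7 other phosphatase 1 genes measured, 0 passed by limma, 0 by edgeR and 0 with a replicate block, and 0 had an unadjusted p under 0.05. The catalytic subunit gene Ppp1cc had a log2 fold change of 0.25 and Ppp1cb one of -0.12, and the regulators Ppp1r7 and Ppp1r11 had 0.17 and -0.17.

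**Figure D2:**
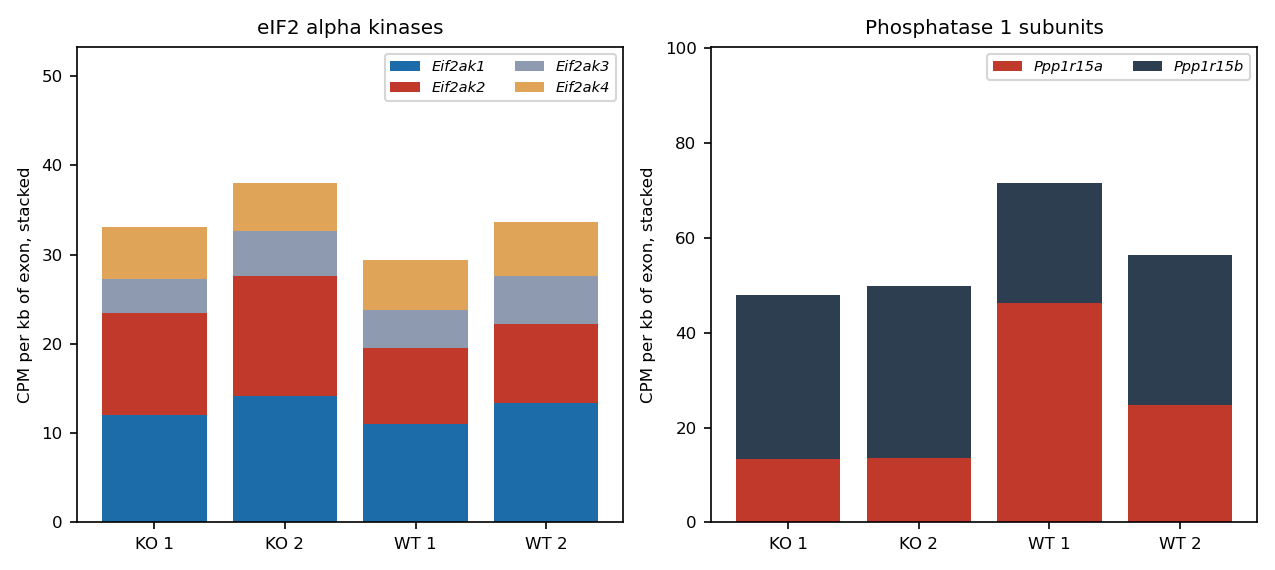
Level in CPM per kb of exon (y axis, stacked) of the 4 eIF2 alpha kinases (left) and of Ppp1r15a and Ppp1r15b (right), in KO libraries 1 and 2 and WT libraries 1 and 2. The kinase stacks reach 33.1 and 38.0 in the KO and 29.4 and 33.7 in the WT, and the Ppp1r15a segment is 13.4 and 13.5 in the KO and 46.2 and 24.7 in the WT.

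The promoter window of Ppp1r15a is shown because both of its KO values lay below both WT values, the reverse of the other 6 genes without overlap. It is chr7:45526219-45526518 on the minus strand of GRCm38.p6, from RefSeq, with motif matches in capitals.
Ppp1r15a: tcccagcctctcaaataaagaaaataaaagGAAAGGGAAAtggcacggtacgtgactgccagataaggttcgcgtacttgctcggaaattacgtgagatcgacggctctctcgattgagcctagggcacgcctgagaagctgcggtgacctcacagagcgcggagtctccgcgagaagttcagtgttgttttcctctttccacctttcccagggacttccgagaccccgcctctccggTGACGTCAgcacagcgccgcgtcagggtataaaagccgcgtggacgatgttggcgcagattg

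The second match, 12 bases before the start, is the cAMP response element TGACGTCA, the letters bound by CREB and ATF family factors and by some AP-1 dimers. Of all windows 1.79% hold it. The first is an interferon-stimulated response element core 220 bases before the start. The mRNA of Ppp1r15a is known to be translated through upstream reading frames when eIF2 is phosphorylated. Its leader holds 3 and 7 ATG triplets before the coding sequence in its 2 annotated coding transcripts, and that of Ppp1r15b holds 3. In 1 transcript per gene, 6 of the 10 genes have at least 1 upstream ATG, and so do 50.9% of 12733 genes. Eif2ak1, Eif2ak4, Eif2b5 and Eif4ebp1 have none in the transcript used.

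Ppp1r15a is often induced with immediate-early genes. These are given beside it in a list that also holds cell dissociation genes and includes the heat shock genes Hspa1a and Hspa1b. This list was drawn up after the values of Ppp1r15a and Fos were seen. Of 19 measured, 7 fell and 0 rose by limma, where 0.839% of all genes were called lower and 1.58% higher. The median log2 fold change was -1.69 against -0.02 over all genes. Atf3 and Myc, named after their values were seen, were the 2 with a positive log2 fold change, at 1.04 and 0.07. Atf3 stood at 2.20 and 2.78 CPM in the KO and 0.679 and 0.712 CPM in the WT (limma adjusted p = 0.124). The summed level of the list was 1080 and 925 CPM in the KO libraries and 3020 and 2010 CPM in the WT libraries. Fos, an AP-1 subunit, stood at 47.7 and 42.6 CPM in the KO, against 377 and 209 CPM in the WT (limma adjusted p = 0.0144). Zfp36, which promotes mRNA decay, stood at 37.0 and 35.2 CPM in the KO, against 186 and 123 CPM in the WT (limma adjusted p = 0.00723). WT replicate 1 was the highest library in the list's sum, as it was for Ppp1r15a. Without it 9 of the list fell, without WT replicate 2 11 fell, without KO replicate 1 2 fell and without KO replicate 2 none was called, with 12 at an unadjusted p under 0.05. The part of the early genes' difference in that of Ppp1r15a was not tested.

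Among the kinases, Eif2ak2, which encodes PKR, the sensor of double-stranded RNA and itself an interferon-induced gene, had 58.3 and 68.5 CPM in the KO libraries, against 43.4 and 45.0 CPM in the WT libraries. It was the only kinase gene of the 4 whose groups did not overlap. The means were 63.4 ± 7.19 CPM in the KO and 44.2 ± 1.15 CPM in the WT (SD, n = 2 each), or 1.43 times as much in the KO. Its log2 fold change of 0.51 ± 0.15 (SE, 95% interval 0.15 to 0.86) did not pass (limma adjusted p = 0.131), and its FDR in the authors' deposited table was 0.0653. It passed with a replicate block by limma (adjusted p = 0.0434) and by edgeR (adjusted p = 0.0384), and the largest adjusted p over all fits with 4 libraries was 0.251. Eif2ak2 lies on chromosome 17 of GRCm38 from 78852564 to 78882573 on the minus strand, and 3.40% of its exon sequence is shared with Gm26637 on the opposite strand.

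Its promoter window, chr17:78882523-78882822 on the minus strand of GRCm38.p6 from RefSeq, is shown for the interferon element it holds, in capitals.
Eif2ak2: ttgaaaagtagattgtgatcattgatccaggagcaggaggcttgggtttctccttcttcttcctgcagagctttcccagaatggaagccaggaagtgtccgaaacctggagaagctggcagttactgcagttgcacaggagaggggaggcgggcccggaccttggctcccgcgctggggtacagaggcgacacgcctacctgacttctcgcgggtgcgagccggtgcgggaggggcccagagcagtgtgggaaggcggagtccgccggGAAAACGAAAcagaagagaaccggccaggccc

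The match to GAAA, any 2 bases, GAAA begins 18 bases after the RefSeq start. Type I interferon genes are given beside it. Of 22 listed genes measured, 7 rose and 0 fell by limma, and 17 rose with a replicate block. The shares of all genes called higher were 1.58% by limma and 6.64% by limma with the block. The calls in the list did not hold when either KO library was left out, and their count was higher when either WT library was left out. The count over all genes moved in the same directions. The median log2 fold change of the list was 1.18, and Eif2ak2 itself, which is not in the list, had 0.51. Oas3, an oligoadenylate synthetase that senses double-stranded RNA, had a log2 fold change of 1.43, its relatives Oasl1 and Oasl2 had 1.88 and 1.33, and the ubiquitin-like Isg15 had 1.81 (limma adjusted p = 0.00977, 0.0141, 0.0208 and 0.0144).

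Eif2ak1 encodes HRI, the kinase of haem shortage and mitochondrial stress, abundant in erythroid cells. It had 67.8 and 80.6 CPM in the KO libraries, against 62.5 and 76.1 CPM in the WT libraries. The groups overlapped, and within each the library numbered 2 was the higher. The log2 fold change was 0.10 ± 0.17 (SE, limma adjusted p = 0.776), with a 95% interval of -0.29 to 0.48. The gene lies on chromosome 5 from 143817788 to 143904251 on the plus strand, and 8.59% of its exon sequence is shared with Aimp2 on the opposite strand. Of the relay upstream of HRI, Oma1 stood at 17.5 and 19.3 CPM in the KO and 24.1 and 22.5 CPM in the WT (log2 fold change -0.32, limma adjusted p = 0.377). Dele1 stood at 61.1 and 68.1 CPM in the KO and 57.1 and 62.9 CPM in the WT (log2 fold change 0.10, limma adjusted p = 0.730). Oma1 and Dele1 were chosen after their values were seen.

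Eif2ak4 encodes GCN2, which senses uncharged tRNA. It had 43.8 and 40.4 CPM in the KO libraries, against 41.8 and 45.7 CPM in the WT libraries, overlapping values with a log2 fold change of -0.05 ± 0.15 (SE, 95% interval -0.41 to 0.30, limma adjusted p = 0.874). It lies on chromosome 2 from 118388618 to 118475234 on the plus strand. Eif2ak3 encodes PERK, the kinase of the endoplasmic reticulum. It had 23.0 and 30.2 CPM in the KO libraries, against 26.0 and 32.2 CPM in the WT libraries, also overlapping, with a log2 fold change of -0.13 ± 0.21 (SE, 95% interval -0.61 to 0.35, limma adjusted p = 0.763). It lies on chromosome 6 from 70844515 to 70905245 on the plus strand, with 8.05% of its exon sequence shared with Gm43292 on the opposite strand. The intervals of Eif2ak1, Eif2ak3 and Eif2ak4 all include 0 and all exclude a log2 fold change of the size seen for Eif4ebp1.

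On the scale of CPM per kilobase of exon, Eif2ak1 was the highest kinase RNA, at 12 and 14.2 CPM per kb in the KO and 11 and 13.4 CPM per kb in the WT. Eif2ak2 followed, at 11.4 and 13.4 CPM per kb in the KO, overlapping Eif2ak1, and at 8.49 and 8.81 CPM per kb in the WT, below it. Eif2ak4 (5.87 and 5.42 CPM per kb in the KO, 5.60 and 6.13 in the WT) and Eif2ak3 (3.82 and 5.01 CPM per kb in the KO, 4.31 and 5.35 in the WT) were the lowest. Eif2ak2 made up 34.5% and 35.2% of the summed kinase level in the KO libraries and 28.9% and 26.1% in the WT libraries, and Eif2ak1 36.2% and 37.4% against 37.5% and 39.8%. For Eif2ak2 the shares of the 2 libraries of each group differ by less than the groups do, and these shares are given with no test.

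**Figure D3:**
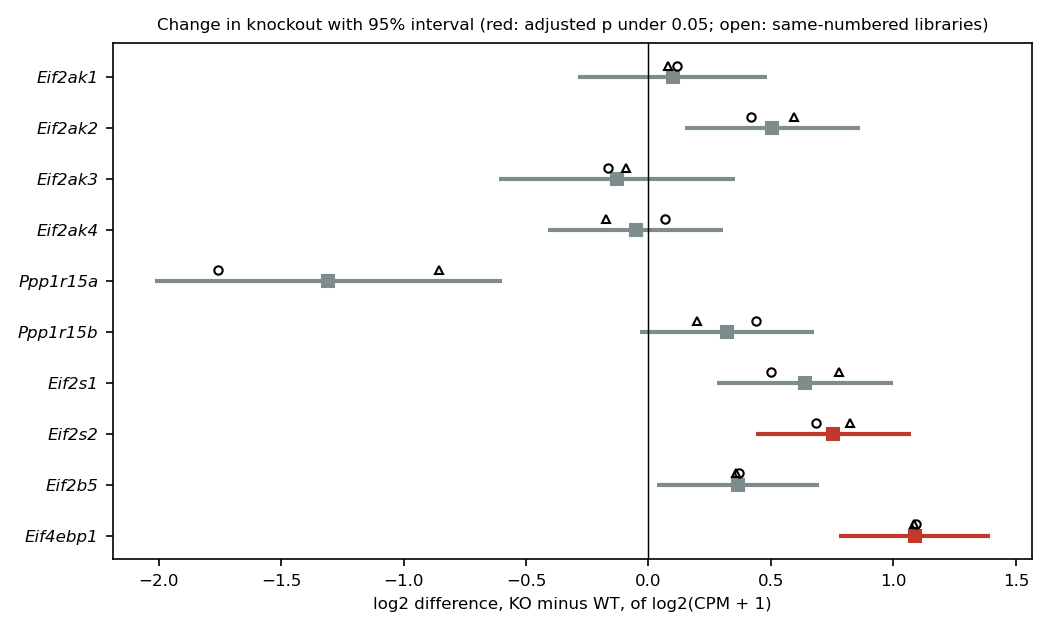
Log2 difference of log2(CPM + 1), KO minus WT (x axis), for each of the 10 genes with its 95% interval from limma; red marks an adjusted p under 0.05, and open circles and triangles are the differences between libraries numbered 1 and 2. Eif4ebp1 (1.09) and Eif2s2 (0.75) are the red genes, and Ppp1r15a (-1.31) is the only interval wholly below 0.

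Of 18 genes that activate, inhibit or chaperone the kinases, 0 passed by limma and 0 by edgeR, 5 were higher and 1 lower at an unadjusted p under 0.05, and 5 rose with a replicate block. Gcn1, the ribosome-bound activator of GCN2, had a log2 fold change of 0.68, and Adar, an RNA-editing enzyme that limits PKR activation, one of 0.67. Abce1, a ribosome recycling factor, stood at 0.49, and Prkra, the protein activator of PKR, at -0.56 on the same scale. Their limma adjusted p-values were 0.132, 0.117, 0.113 and 0.134. Adar shares 16.8% of its exon sequence with Chrnb2 on the opposite strand.

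In the mTORC1 list, which acts on 4E-BP1, 2 of 11 genes rose and 0 fell by limma, with 1 called without KO replicate 1 and 0 without KO replicate 2. Sesn2, which encodes a leucine-sensing inhibitor of mTORC1, stood at 61.8 and 88.9 CPM in the KO, against 7.98 and 12.1 CPM in the WT (log2 fold change 2.79, limma adjusted p = 0.00599). Ddit4, which encodes the inhibitor REDD1, stood at 40.6 and 58.4 CPM in the KO, against 17.8 and 13.9 CPM in the WT (log2 fold change 1.57, limma adjusted p = 0.0179). Both are inhibitors, whereas Mtor itself, chosen after its values were seen, had a log2 fold change of 0.37 (limma adjusted p = 0.401). Deptor, another inhibitor, had -0.86 and Tsc2 0.38, and neither passed (limma adjusted p = 0.113 and 0.266). With a replicate block 2 of the list rose and 1 fell, the last being Deptor (limma adjusted p = 0.0187). Limma called 1.58% of all genes higher without the block, and 6.64% higher and 5.02% lower with it. Of 15 genes for eIF4E and eIF4F, 0 passed by limma and 0 by edgeR, 3 were higher and 2 lower at an unadjusted p under 0.05, and in the fit with a replicate block 2 were called higher and 2 lower. Pdcd4, an inhibitor of the helicase eIF4A, had a log2 fold change of -0.61 and Eif4e3, an atypical cap-binding protein, one of -0.72 with 14.8% of its exon sequence shared with Gm20696 (limma adjusted p = 0.0563 and 0.0849), while the scaffolds Eif4g2 and Eif4g1 had 0.42 and 0.46 (limma adjusted p = 0.163 and 0.168).

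Over these 63 genes of the wider pathway, Sesn2 and Ddit4 were the 2 called, a share near the 2.42% of all genes, and the median log2 fold change was 0.17. In the ATF4 branch, downstream of the kinases, 5 of 10 genes rose and 0 fell. This count was 2 without KO replicate 1 and 0 without KO replicate 2. Trib3, a pseudokinase that feeds back on ATF4, had a log2 fold change of 4.90, asparagine synthetase Asns 3.0, the glutathione-degrading Chac1 2.78 and Ddit3, which encodes CHOP, an inducer of Ppp1r15a in other cells, 1.55 (limma adjusted p = 0.000353, 0.00723, 0.00879 and 0.00879). Atf4 RNA, chosen after its values were seen, stood at 488 and 444 CPM in the KO and 309 and 306 CPM in the WT and did not pass without a block (limma adjusted p = 0.0663). With a replicate block it passed (limma adjusted p = 0.0115), and 7 of the 10 genes rose, where 6.64% of all genes were called higher.

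**Figure D4:**
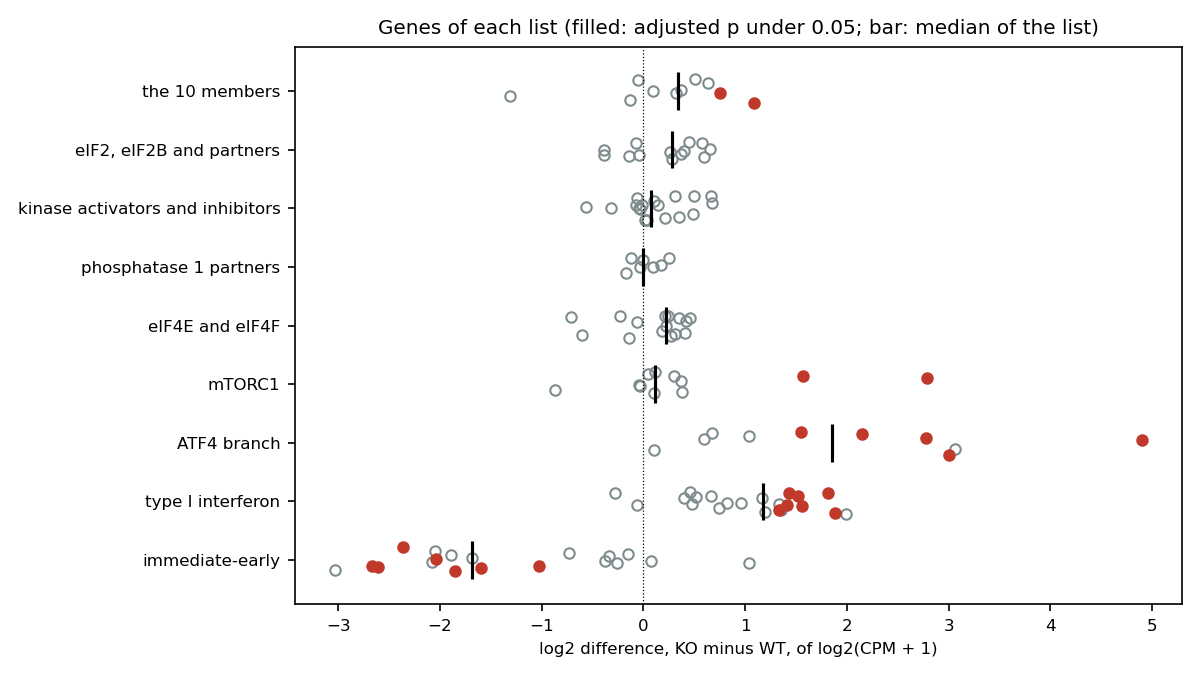
Log2 difference of log2(CPM + 1), KO minus WT (x axis), of the genes in each list; filled points passed limma at an adjusted p under 0.05 and bars are list medians. The medians were 0.34 for the 10 genes, 1.85 for the ATF4 branch and 1.18 for type I interferon genes. The median was -1.69 for the row marked immediate-early, which also holds cell dissociation genes and was drawn up after values were seen.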

How the data were processed

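Reads were processed by the authors against GRCm38.p6 with STAR 2.7.10a and featureCounts 2.0.1, per the submitters' processing notes; the annotation release, trimming and strand setting are not given in the sources used here. The deposited table holds a normalized signal per library, named CPM in its header; edgeR's TMM scaling of the recovered reads gave the same values to a relative difference of at most 4.88e-15. Divided by the value of 1 read in its library, 100% of values fell within 0.01 of an integer, and these reads were used for count tests. The table also holds the authors' log2 fold change and log2 CPM, a likelihood ratio score deposited by the authors, and their p-values and FDR. A refit by an edgeR likelihood ratio test with a replicate block matched the deposited log2 fold changes to 3.4e-08, so the authors paired same-numbered libraries. Whether the numbers mark shared animals or days is not given in the sources used here. Across 13795 genes, which are not independent replicates, KO and WT libraries of 1 number deviated from their group means with a correlation of 0.286.

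The test was limma 3.58.1 (R 4.3.3) on log2(CPM + 1), with trend and robust moderation and no block, two-sided, with Benjamini-Hochberg adjustment over all 15255 genes and 2 residual degrees of freedom (1 with a replicate block). The planned design already named this test for normalized values. On recovered reads, edgeR 4.0.16 called 287 genes and DESeq2 1.42.0 called 1214. The fit was run on simulated counts with 200 changed genes. That simulation gave every gene the same dispersion and no difference between library numbers, unlike these data. It therefore does not measure the error rate here. A fold change on the log2(CPM + 1) scale understates the change of low genes. Intervals cover the spread between libraries. Positions and exon lengths are from GENCODE M21 (GRCm38), in which 15226 of the 15255 identifiers were found. Promoter sequences are RefSeq's, on GRCm38.p6; 8 of the 10 genes had an entry, and those of Ppp1r15b and Eif4ebp1 are not shown.

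The 10 genes and all lists were chosen with earlier results of these data known. Named genes are the 10, Afg3l2, called genes of the wider pathway, up to 4 genes per list with the smallest p, and the 3 nearest patterns to each called gene; the text says where any other was picked with its values in view. For Eif2s2 the nearest were Noc3l, Nol10 and Adcy6, at distances of 0.0133, 0.0146 and 0.0235. The alternative fits of the immediate-early list were chosen after seeing the data.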

Additional observations from a re-analysis of the deposited data

How the results depend on the processing

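With all 4 libraries in, the direction of each of the 10 genes held under the 11 other settings. Leaving out 1 library turned the sign of 3 kinase genes that were not called: as log2 fold changes, Eif2ak1 gave -0.024 without KO replicate 2 and -0.042 without WT replicate 1 (range -0.042 to 0.24), Eif2ak3 0.059 without KO replicate 1 and 0.021 without WT replicate 2 (range -0.32 to 0.059), and Eif2ak4 0.003 without KO replicate 2 and 0.010 without WT replicate 2 (range -0.12 to 0.010). With a replicate block limma called 1779 genes, 5 of the 10 (11.7% of all genes) and 15 of the wider pathway, and edgeR with a replicate block called 1789, 4 and 15; DESeq2 called 1214, 4 and 10. Limma without trend and robust moderation called 0, 0 and 0, with 2795 genes and 5 of the 10 at an unadjusted p under 0.05, and Afg3l2 at -1.29 then had an adjusted p of 0.111. With 1 library left out the counts ranged over 0 to 1068 for all genes, 0 to 3 for the 10 and 0 to 7 for the wider pathway, and the log2 fold change of Afg3l2 over -1.43 to -1.15; without KO replicate 2, 1209 genes and 4 of the 10 had an unadjusted p under 0.05. These fits take the spread of the remaining library from the other group. Exon lengths from the longest transcript gave a KO minus WT difference of 7.05 percentage points in the Eif2ak2 share, against 7.35 with all exons. The causes of these changes were not tested. The 10 genes had 388 to 5213 reads per library, and groups of 2 libraries limit the precision.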
